A study of Mus musculus with 12 samples.

Results

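The breakdown of the branched-chain amino acids leucine, isoleucine and valine, and of the propionate that isoleucine and valine yield, was followed in kidney RNA through 32 genes. They were selected by gene symbol from the 57490 genes of the count table, and each symbol matched 1 gene. The 12 libraries came from male mice of the BKS strain aged 13 weeks, 4 in each of 3 groups, with RNA from 1 mouse in each. Ctrl mice were db/m, labelled wild-type and described in the growth notes as db/+ heterozygotes for the leptin receptor mutation, and received purified water. Model mice were db/db leptin receptor mutants, a diabetic strain, and also received purified water. The paper writes the strain of the db/db mice as BKS.Cg-Lepr<db>/+. YHY mice were db/db mice given a water extract of Yiqi Huoxue Yangyin Decoction (YHY) at 6.24 g/mL. Each mouse was gavaged once daily for 4 weeks, at 50 µL for every 10 g it weighed. Which of the study's dose groups was sequenced is not given in its text. The sample labels give whole kidney tissue, whereas the series description gives renal cortex. Because db/db and db/+ mice differ in body mass and blood glucose as well as genotype, a difference between Model and Ctrl cannot be assigned to one of these from the groups alone.

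In this pathway an aminotransferase first moves the amino group of leucine, isoleucine or valine to 2-oxoglutarate, and the branched-chain keto acid dehydrogenase complex then commits the keto acid to oxidation in mitochondria. A dedicated kinase switches the complex off and a dedicated phosphatase switches it on. Leucine carbon ends as acetoacetate and acetyl-CoA, whereas isoleucine and valine carbon reaches propionyl-CoA, which a biotin carboxylase and a cobalamin-dependent mutase turn into succinyl-CoA. Kidney is among the tissues that oxidise branched-chain amino acids, and most of the enzymes are known to be abundant in the proximal tubule.

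Library totals ran from 24415658 to 33276634 counts. Levels are given as CPM, read counts scaled by library size and TMM factor, and differences as log2 fold changes from edgeR's quasi-likelihood test. A gene was called when its P, adjusted by the Benjamini-Hochberg method over all 17431 genes tested, was under 0.05. All 32 members passed the filter on low counts. The libraries differed in 1 large respect. Transcripts of the mitochondrial genome took 18.6, 22.7, 18.4 and 18.5% of the counts in Ctrl 1 to 4. The share was 41.2, 58.9, 55.3 and 53.4% in Model 1 to 4 and 53.8, 64.6, 54.6 and 54.2% in YHY 1 to 4. Every db/db library was thus far above every Ctrl library, and Model 1 stood below the other db/db mice. The 95% Wilson interval of the Model 1 share was 41.1% to 41.2%, which covers counting error only. Since this share moved with genotype, the 32 members were also expressed relative to the counts of nuclear genes. They held 0.905, 0.861, 0.981 and 0.853% of the counts outside the mitochondrial genome in Ctrl 1 to 4. The share was 0.589, 0.497, 0.543 and 0.554% in Model 1 to 4 and 0.421, 0.423, 0.489 and 0.441% in YHY 1 to 4. The 3 groups did not overlap on this measure, a sum in which the most abundant members weigh most. The part of the mitochondrial share in the results was not tested. On the TMM scale the summed level averaged 5933 ± 569 CPM (Ctrl), 2871 ± 329.6 CPM (Model) and 2113 ± 187 CPM (YHY), with SDs of 4 mice. The members Oxct1 and Acat1 together supplied 1902 of 5893 CPM in Ctrl 1, 521 of 2568 in Model 2 and 408 of 2168 in YHY 3. Whether the groups stay apart without these genes was not tested.

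**Figure D1:**
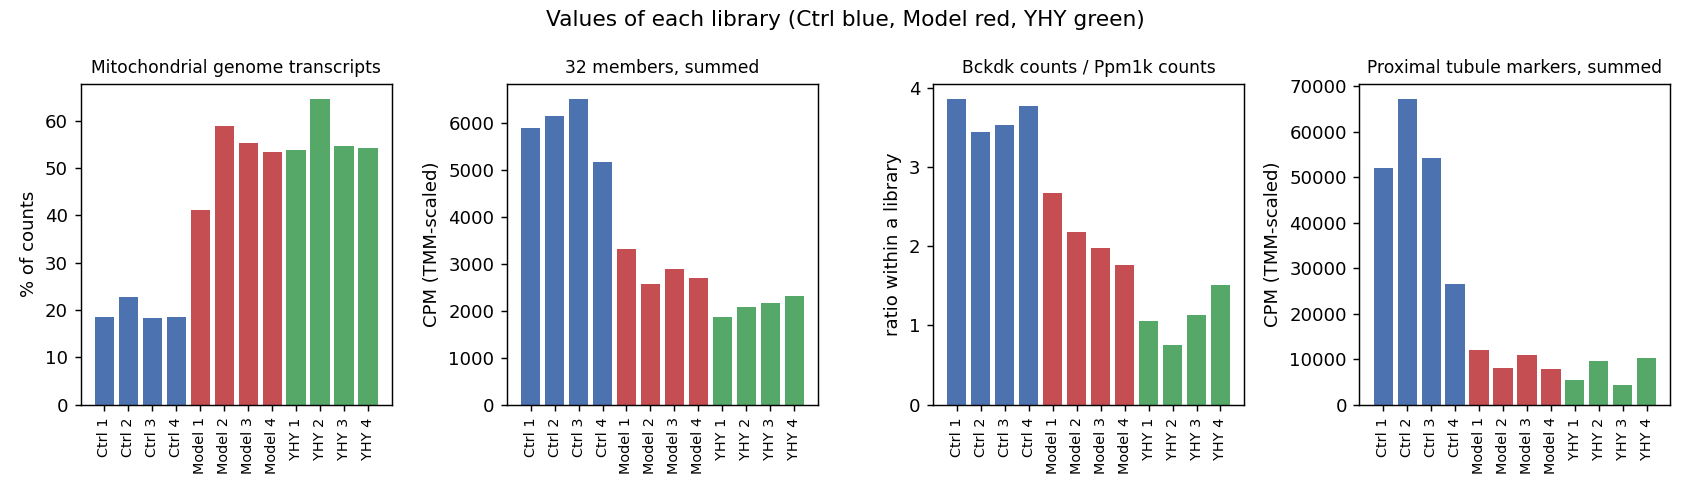
Bars give, for each of the 12 libraries, the percent of counts from the mitochondrial genome, the summed level of the 32 members in TMM-scaled CPM, the ratio of Bckdk to Ppm1k counts and the summed level of 12 proximal tubule markers in CPM. The mitochondrial share is 18.4 to 22.7% in Ctrl and 41.2 to 64.6% in the db/db mice, and the kinase to phosphatase ratio falls from Ctrl to Model to YHY with no overlap.

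Within Ctrl kidneys the members spanned a wide range of levels. Per kilobase of the gene length the authors list, Oxct1, which activates acetoacetate, was the most abundant at a mean of 326 CPM per kb. Acat1, the mitochondrial thiolase that ends isoleucine breakdown, followed at 182, and Aldh6a1, the methylmalonate semialdehyde dehydrogenase, at 115. Lowest were Bcat1 at 3.41, Ppm1k at 2.62 and Acss3 at 0.0927 CPM per kb. Among subunits of the dehydrogenase complex, Dld stood at 50.6, Bckdhb at 26.8, Dbt at 20.3 and Bckdha at 10.1 CPM per kb. Bckdha was therefore the scarcest subunit message of the complex in Ctrl. The median coefficient of variation of a member between mice was 13.2% (Ctrl), 14.3% (Model) and 17.5% (YHY). Among the 4 Model mice, Model 1 had the highest value for 19 of 32 members and the lowest for 6.

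**Figure D2:**
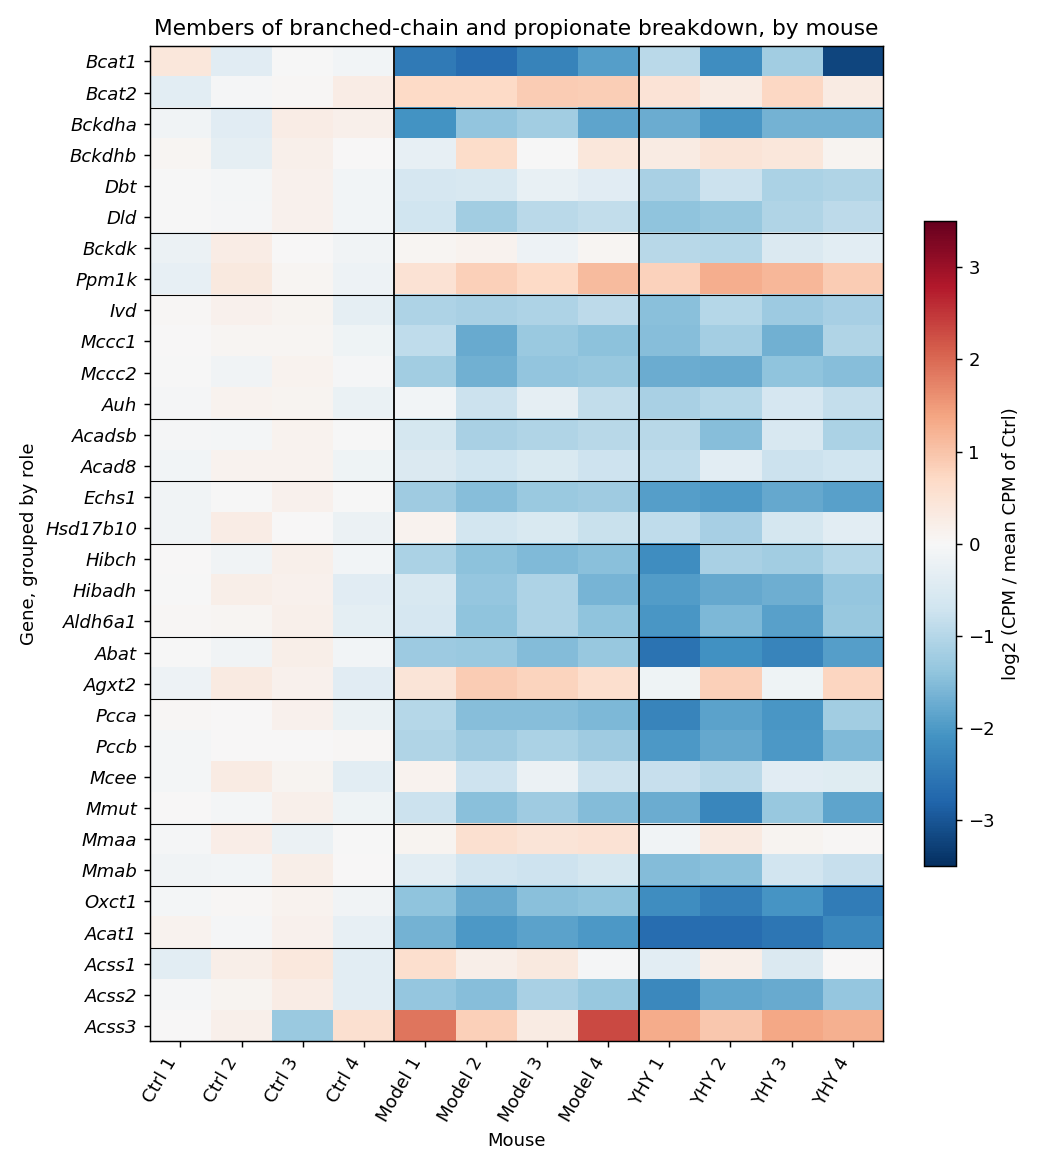
Each row is a member, in pathway order with lines between roles, and each column a mouse; colour gives log2 of the TMM-scaled CPM over the mean of Ctrl, blue for lower and red for higher. Most rows are blue in all 8 db/db mice, while Bcat2, Ppm1k and Acss3 are red in the Model and YHY mice.

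Comparing Model with Ctrl asks how the pathway's messages differ in diabetic kidneys. Most of them were lower, among them Bcat1 and Bckdha at the start of the pathway and Mmut, Oxct1 and Acat1 at its end. The kinase and phosphatase of the dehydrogenase complex held no lower message, and some steps held both lower and higher ones. By adjusted P, 22 of 32 members were lower and 5 were higher, where 18.5% of all genes tested were lower and 19.6% were higher. The members that were higher were Bcat2, Ppm1k, Agxt2, Mmaa and Acss3. In 21 members every Model mouse was below every Ctrl mouse, and in 3 every Model mouse was above, against 20.3% and 19.9% of all genes. The median log2 fold change was -0.99 over the members and 0.04 over all genes. In whole tissue, fewer cells of a type and less RNA per cell cannot be told apart. Scaling set the zero point of these values: with library size alone the median of all genes moved by -0.43, and with library size without mitochondrial transcripts by 0.33. The distance of the members' median from that of all genes was -1.03 as reported, -1.01 with library size alone and -1.03 without mitochondrial transcripts. Of all genes called, 51.5% were higher with TMM, 21.4% with library size alone and 77.7% without mitochondrial transcripts. Under these 2 scalings 24 and 18 members were lower, and 0 and 7 were higher; DESeq2 with its own size factors gave 22 and 5. Without Ctrl 1 the number of members higher was 2.

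The 2 branched-chain aminotransferases moved in opposite directions. Coordinates here and below are GRCm39, except for promoters. Bcat1 (ENSMUSG00000030268, chromosome 6, 144939561 to 145021910, minus strand), the cytosolic form, stood at 42, 24, 31.7 and 29.5 CPM in Ctrl 1 to 4 and 5.73, 5.05, 6.30 and 8.42 in Model 1 to 4. All 4 Model mice were far below the lowest Ctrl mouse. The log2 fold change was -2.32 (adjusted P = 1.57e-04, standard error 0.36), the largest decrease among the members. Bcat2 (ENSMUSG00000030826, chromosome 7, 45219577 to 45239135, plus strand), the mitochondrial form, stood at 57.8, 72.2, 76.8 and 89.4 CPM in Ctrl 1 to 4 and 121, 120.1, 136 and 134 in Model 1 to 4. Here the Model mice were all above the Ctrl mice, with a log2 fold change of 0.79 (adjusted P = 0.00103, standard error 0.16). Per kilobase, the ratio of Bcat1 to Bcat2 counts within a library was 0.304, 0.139, 0.173 and 0.138 in Ctrl 1 to 4 and 0.0199, 0.0176, 0.0194 and 0.0263 in Model 1 to 4. This ratio does not depend on scaling and did not overlap between the groups; like the ratios below, it was chosen after the values were seen. The span of Bcat2 overlaps the long non-coding RNA 0610005C13Rik on the other strand, and the use of strand in counting was not stated, so reads of shared sequence cannot be told apart. Bckdha overlaps B3gnt8 and Acadsb overlaps Fgfr2 in the same way. 0610005C13Rik, looked at after the values of Bcat2 were seen, averaged 95.1 ± 17.8 CPM (Ctrl) and 88 ± 7.71 CPM (Model).

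Subunits of the branched-chain keto acid dehydrogenase complex did not move alike. Bckdha (ENSMUSG00000060376, chromosome 7, 25329371 to 25358406, minus strand) encodes the alpha subunit of the decarboxylase, which carries the serine that the complex kinase phosphorylates, and had 17.7, 14.5, 22.8 and 21.4 CPM in Ctrl 1 to 4 and 4.47, 7.38, 8.27 and 5.34 in Model 1 to 4. Every Model value was below every Ctrl value, and the log2 fold change was -1.59 (adjusted P = 5.83e-05, standard error 0.22). Its partner Bckdhb (ENSMUSG00000032263, chromosome 9, 83807198 to 84006293, plus strand), the beta subunit, had 50.5, 39.2, 55 and 48.9 CPM in Ctrl 1 to 4 and 39.3, 76, 48 and 63.3 in Model 1 to 4. The groups overlapped, Model 1 being among the lowest of the 8 mice and Model 2 the highest. The log2 fold change of 0.23 (adjusted P = 0.356, standard error 0.19) did not pass the threshold, and its sign turned with library size alone. Without mitochondrial transcripts in the library size it was higher, at 0.56 (adjusted P = 0.0462). Within a library the ratio of Bckdha to Bckdhb per kilobase was 0.334, 0.352, 0.394 and 0.417 in Ctrl 1 to 4 and 0.108, 0.0923, 0.164 and 0.0802 in Model 1 to 4. The alpha to beta ratio was thus lower in every Model mouse whatever the scaling. Dbt (ENSMUSG00000000340, chromosome 3, 116306719 to 116343630, plus strand), the acyltransferase core, was at 67.8, 64.3, 76.1 and 63.5 CPM in Ctrl 1 to 4 and 45.1, 45.9, 56.3 and 51.8 in Model 1 to 4, a smaller difference without overlap. Its log2 fold change was -0.45 (adjusted P = 0.0151, standard error 0.13), and without Model 2 the adjusted P was 0.0509. Its call was also lost without mitochondrial transcripts in the library size, at -0.12 (adjusted P = 0.530). Dld (ENSMUSG00000020664, chromosome 12, 31381276 to 31401452, minus strand), the dehydrogenase shared with the pyruvate and 2-oxoglutarate complexes, was at 184, 181, 205 and 175 CPM in Ctrl 1 to 4 and 115, 80.5, 97.5 and 103 in Model 1 to 4. It was lower in each Model mouse, with a log2 fold change of -0.91 (adjusted P = 3.47e-04, standard error 0.16).

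The kinase and the phosphatase of the complex also parted. Bckdk (ENSMUSG00000030802, chromosome 7, 127503254 to 127509393, plus strand), the kinase, had 49.6, 68.1, 57.9 and 52.8 CPM in Ctrl 1 to 4 and 60.1, 61.7, 50.9 and 60.1 in Model 1 to 4. The Model values lay within the range of Ctrl, and the log2 fold change was 0.03 (adjusted P = 0.908, standard error 0.16), of changing sign among alternatives. Ppm1k (ENSMUSG00000037826, chromosome 6, 57483487 to 57512453, minus strand), the mitochondrial phosphatase, had 12.8, 19.8, 16.4 and 14 CPM in Ctrl 1 to 4 and 22.5, 28.2, 25.8 and 34.1 in Model 1 to 4. All Model mice were above all Ctrl mice, with a log2 fold change of 0.81 (adjusted P = 0.00188, standard error 0.17). The ratio of Bckdk to Ppm1k counts was 3.86, 3.44, 3.54 and 3.77 in Ctrl 1 to 4 and 2.67, 2.19, 1.98 and 1.76 in Model 1 to 4. It was 1.06, 0.757, 1.13 and 1.51 in YHY 1 to 4. The ratio stepped down from Ctrl to Model and again from Model to YHY with no overlap between neighbouring groups. Message ratios say nothing of the phosphorylation of the complex, which was not measured.

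The sequences before the starts of Bckdha, Bckdk and Ppm1k are shown because these genes set the amount and the switching of the same complex and yet moved differently. RefSeq promoters, 250 bases before to 50 after a start in GRCm38.p6, were found for 25 of the 30 members called in at least 1 comparison, 31 promoters in all. They are printed 5′ to 3′ in lower case; capitals would mark a match to a searched motif, and these 3 hold none. Bckdha lies at chr7:25658712-25659011, minus strand with 48.0% G and C, Bckdk at chr7:127903823-127904122, plus strand with 54.0%, and Ppm1k at chr6:57535438-57535737, minus strand with 52.7%.
Bckdha: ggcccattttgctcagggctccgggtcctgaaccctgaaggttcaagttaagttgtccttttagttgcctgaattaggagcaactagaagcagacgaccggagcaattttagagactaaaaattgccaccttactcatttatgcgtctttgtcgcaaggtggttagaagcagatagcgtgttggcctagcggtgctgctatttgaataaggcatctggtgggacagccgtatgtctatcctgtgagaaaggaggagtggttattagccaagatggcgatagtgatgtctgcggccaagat
Bckdk: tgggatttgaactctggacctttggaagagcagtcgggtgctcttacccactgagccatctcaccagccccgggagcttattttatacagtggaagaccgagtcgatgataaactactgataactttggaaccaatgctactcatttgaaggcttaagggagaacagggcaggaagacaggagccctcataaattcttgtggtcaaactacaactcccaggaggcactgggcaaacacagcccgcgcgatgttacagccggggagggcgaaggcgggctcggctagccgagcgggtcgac
Ppm1k: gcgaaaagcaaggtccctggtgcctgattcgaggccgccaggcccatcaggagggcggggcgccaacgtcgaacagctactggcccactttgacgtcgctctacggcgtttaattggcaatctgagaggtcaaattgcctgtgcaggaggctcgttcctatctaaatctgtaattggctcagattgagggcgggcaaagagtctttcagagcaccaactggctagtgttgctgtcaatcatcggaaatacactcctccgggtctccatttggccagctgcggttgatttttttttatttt
The motifs were searched on both strands: TNAAGGTCA, an estrogen-related receptor site, CCGGAAGT, an ETS site, and GCATGCGC, the core of an NRF1 site. They occur in 1.28%, 3.89% and 2.71% of all 32851 promoters. Among the 31 promoters of called members the single match was an NRF1 core before Pccb, shown with that gene. The median share of G and C was 55.7% in the promoters of called members and 52.7% in all promoters, with a median of 16 and 7 CG pairs. A match is a description of letters, and no match says only that they are not in this window.

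All 4 genes of the leucine branch were lower in Model. Ivd (ENSMUSG00000027332, chromosome 2, 118692435 to 118713390, plus strand), isovaleryl-CoA dehydrogenase, had 463, 506, 482 and 365 CPM in Ctrl 1 to 4 and 214, 207, 216 and 239 in Model 1 to 4. Model mice were all below Ctrl mice, at a log2 fold change of -1.05 (adjusted P = 1.12e-04, standard error 0.16). Methylcrotonyl-CoA carboxylase, a biotin enzyme, is built of the products of Mccc1 and Mccc2. Mccc2 (ENSMUSG00000021646, chromosome 13, 100085038 to 100152147, minus strand) fell from 78.2, 72.4, 86.1 and 76.5 CPM in Ctrl 1 to 4 to 33.8, 24.2, 29.8 and 31.3 CPM in Model 1 to 4. The groups were far apart, with a log2 fold change of -1.39 (adjusted P = 7.22e-06, standard error 0.14). Mccc1 moved by a similar -1.31 (adjusted P = 7.13e-05), from 92.8 to 109 CPM in Ctrl to 30.8 to 55.6 in Model. Auh, the methylglutaconyl-CoA hydratase, had 87.2, 97.4, 95.7 and 76.6 CPM in Ctrl 1 to 4 and 82.9, 53, 72 and 49.4 in Model 1 to 4. Model 1 lay among the Ctrl mice while the other Model mice lay below them, and the log2 fold change of -0.47 (adjusted P = 0.0464) became -0.68 without Model 1 (adjusted P = 0.006996). For Auh the call was lost in 6 of 12 fits that left out 1 mouse, with an adjusted P of up to 0.147 (without Model 4), and without mitochondrial transcripts in the library size the value was -0.15 (adjusted P = 0.481).

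Genes of the isoleucine and valine arms were lower as well, apart from Hsd17b10, which was not called. Acadsb, which oxidises the isoleucine derivative, changed by -0.93 (adjusted P = 9.43e-04) and Acad8, the isobutyryl-CoA dehydrogenase of valine, by -0.61 (adjusted P = 0.00266). The call of Acad8 was lost without mitochondrial transcripts in the library size, at -0.29 (adjusted P = 0.0859). Echs1 (ENSMUSG00000025465, chromosome 7, 139685623 to 139696389, minus strand), the short-chain enoyl-CoA hydratase that serves both arms, stood at 158, 171, 191 and 171 CPM in Ctrl 1 to 4 and 73.3, 61.6, 70.7 and 73.2 in Model 1 to 4. No Model value came near the lowest Ctrl value, at a log2 fold change of -1.31 (adjusted P = 5.13e-06, standard error 0.13). Hsd17b10, the next dehydrogenase of isoleucine, had 103, 136, 114 and 98.4 CPM in Ctrl 1 to 4 and 123, 72.3, 77.5 and 65.5 in Model 1 to 4. Model 1 was among the highest of all 8 mice and the other Model mice were below Ctrl. Its log2 fold change was -0.41 (adjusted P = 0.132) with all mice and -0.71 (adjusted P = 0.00782) without Model 1. With library size alone Hsd17b10 was called lower, at -0.80 (adjusted P = 0.0208). Without mitochondrial transcripts in the library size it was at -0.0956 (adjusted P = 0.708). In the valine branch Hibch, the hydrolase that frees 3-hydroxyisobutyrate, moved by -1.38 (adjusted P = 1.16e-04), from 42.8 to 53.3 CPM in Ctrl to 15.9 to 21.6 in Model. Hibadh, the dehydrogenase of that acid, had 582, 671, 646 and 442 CPM in Ctrl 1 to 4 and 399.7, 229, 278 and 190.2 in Model 1 to 4. Aldh6a1 (ENSMUSG00000021238, chromosome 12, 84477491 to 84497778, minus strand), which makes propionyl-CoA from valine, had 690.3, 697, 749.6 and 523 CPM in Ctrl 1 to 4 and 439.7, 252, 314 and 251 in Model 1 to 4. In both genes Model 1 was the highest Model mouse and still below every Ctrl mouse. The log2 fold changes were -1.09 (adjusted P = 0.00133, standard error 0.23) for Hibadh and -1.08 (adjusted P = 0.00109, standard error 0.22) for Aldh6a1.

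Among aminotransferases that handle beta-alanine, GABA and beta-aminoisobutyrate, Abat (ENSMUSG00000057880, chromosome 16, 8331293 to 8439432, plus strand) stood at 177, 164, 204 and 167 CPM in Ctrl 1 to 4 and 73.3, 72.9, 62.6 and 71.2 in Model 1 to 4. The groups were widely separated, at a log2 fold change of -1.35 (adjusted P = 1.54e-05, standard error 0.15). Agxt2, which uses glyoxylate as acceptor, went the other way, with 45.1, 62.8, 55.9 and 38.7 CPM in Ctrl 1 to 4 and 69.6, 94.1, 86.9 and 76.2 in Model 1 to 4. All Model mice were above all Ctrl mice, at a log2 fold change of 0.69 (adjusted P = 0.0260, standard error 0.23), and without Ctrl 1, Ctrl 4, Model 2 or Model 3 the adjusted P was 0.0631 to 0.0924. With library size alone neither Agxt2 nor Mmaa, Bcat2, Ppm1k or Acss3 was called higher.

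From propionyl-CoA to succinyl-CoA, 3 of 4 genes were lower. Pccb (ENSMUSG00000032527, chromosome 9, 100864085 to 100916951, minus strand), the beta subunit of propionyl-CoA carboxylase, had 180.4, 189, 192 and 194 CPM in Ctrl 1 to 4 and 90.5, 80.03, 88.4 and 80.5 in Model 1 to 4. Neither group spread widely, and the log2 fold change was -1.16 (adjusted P = 2.40e-05, standard error 0.14). Pcca, the biotin-bearing alpha subunit, moved by -1.36 (adjusted P = 1.34e-04), with 90.4, 87.7, 95.9 and 74.6 CPM in Ctrl 1 to 4 and 43.7, 31.2, 30.8 and 29.5 in Model 1 to 4. Model 1 stood above the other 3 Model mice and below every Ctrl mouse. The span of Pcca overlaps Ggact on the other strand, so the limit on strand given for Bcat2 holds here too. Mcee, the epimerase, had 73.6, 93.6, 81.7 and 59.2 CPM in Ctrl 1 to 4 and 84.1, 46.8, 66.3 and 45.7 in Model 1 to 4. Model 1 and 3 lay among the Ctrl mice, and the log2 fold change of -0.34 (adjusted P = 0.208) was -0.60 (adjusted P = 0.0280) without Model 1. With library size alone Mcee was called lower, at -0.73 (adjusted P = 0.0286). Without mitochondrial transcripts in the library size it was at -0.0203 (adjusted P = 0.939). Mmut (ENSMUSG00000023921, chromosome 17, 41245576 to 41272879, plus strand), the cobalamin-dependent mutase, had 146, 139, 164 and 132 CPM in Ctrl 1 to 4 and 86.6, 52.8, 61.1 and 50.5 in Model 1 to 4. All Model mice were lower, with a log2 fold change of -1.21 (adjusted P = 3.11e-04, standard error 0.20). Of the proteins that serve the mutase, Mmab, the adenosyltransferase, was lower at -0.58 (adjusted P = 0.0223), and without Ctrl 3, Model 2, Model 3 or Model 4 the adjusted P was 0.0535 to 0.0661. Without mitochondrial transcripts in the library size Mmab was at -0.26 (adjusted P = 0.295). Mmaa, which guards the loading of the cofactor, was higher at 0.41 (adjusted P = 0.0380), although the groups overlapped and the direction turned with library size alone. For Mmaa the call was lost in 6 of 12 fits that left out 1 mouse, with an adjusted P of up to 0.168 (without Ctrl 3).

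The promoter of Pccb is shown because it held the single motif match among called members. It lies at chr9:101034835-101035134, minus strand in GRCm38.p6, and the capitals mark GCATGCGC as read on the opposite strand, 216 to 223 of 300 bases, beginning 35 bases before the start.
Pccb: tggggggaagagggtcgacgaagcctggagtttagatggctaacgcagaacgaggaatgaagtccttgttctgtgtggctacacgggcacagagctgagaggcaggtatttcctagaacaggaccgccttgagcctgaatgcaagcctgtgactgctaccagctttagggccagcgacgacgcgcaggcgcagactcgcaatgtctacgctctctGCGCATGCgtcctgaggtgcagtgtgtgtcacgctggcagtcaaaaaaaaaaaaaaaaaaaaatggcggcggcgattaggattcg
Neither of the other motifs was found in it.

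At the end of the pathway lay 2 of the most abundant messages, and both were lower. Acat1 (ENSMUSG00000032047, chromosome 9, 53491822 to 53521682, minus strand), which also works in ketone body use, had 747, 665, 762 and 563 CPM in Ctrl 1 to 4 and 218, 169, 188 and 172 in Model 1 to 4. Every Model mouse was at less than the lowest Ctrl value by a wide margin, and the log2 fold change was -1.88 (adjusted P = 2.24e-06, standard error 0.17). Oxct1 (ENSMUSG00000022186, chromosome 15, 4055865 to 4184826, plus strand), the transferase that starts ketone body use, had 1155, 1237, 1315 and 1112 CPM in Ctrl 1 to 4 and 452, 352, 440.4 and 456 in Model 1 to 4. This was the most abundant member per kilobase in all 3 groups, and its log2 fold change was -1.50 (adjusted P = 1.08e-05, standard error 0.16). Acss2, the cytosolic and nuclear acetyl-CoA synthetase, moved by -1.32 (adjusted P = 8.16e-05), with 177, 194, 218 and 142 CPM in Ctrl 1 to 4 and 71.6, 64.6, 83.3 and 73 in Model 1 to 4. Its groups did not overlap, although its span overlaps that of the more abundant Gss on the other strand. Acss1, the mitochondrial form, had 40.1, 59.1, 67.2 and 40.2 CPM in Ctrl 1 to 4 and 77.9, 59.97, 65.1 and 50.5 in Model 1 to 4. The groups overlapped, and the log2 fold change of 0.30 (adjusted P = 0.270) did not pass and turned with library size alone; it was 0.62 (adjusted P = 0.00902) without mitochondrial transcripts in the library size. Acss3, which prefers propionate, was near the limit of what these depths resolve, with 28, 24, 11 and 43 counts in Ctrl 1 to 4 and 76, 25, 18 and 78 in Model 1 to 4. Its log2 fold change of 1.54 (adjusted P = 0.02005) rested on few reads, and without Ctrl 1, Ctrl 3, Model 1 or Model 4 the adjusted P was 0.0531 to 0.0933.

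**Figure D3:**
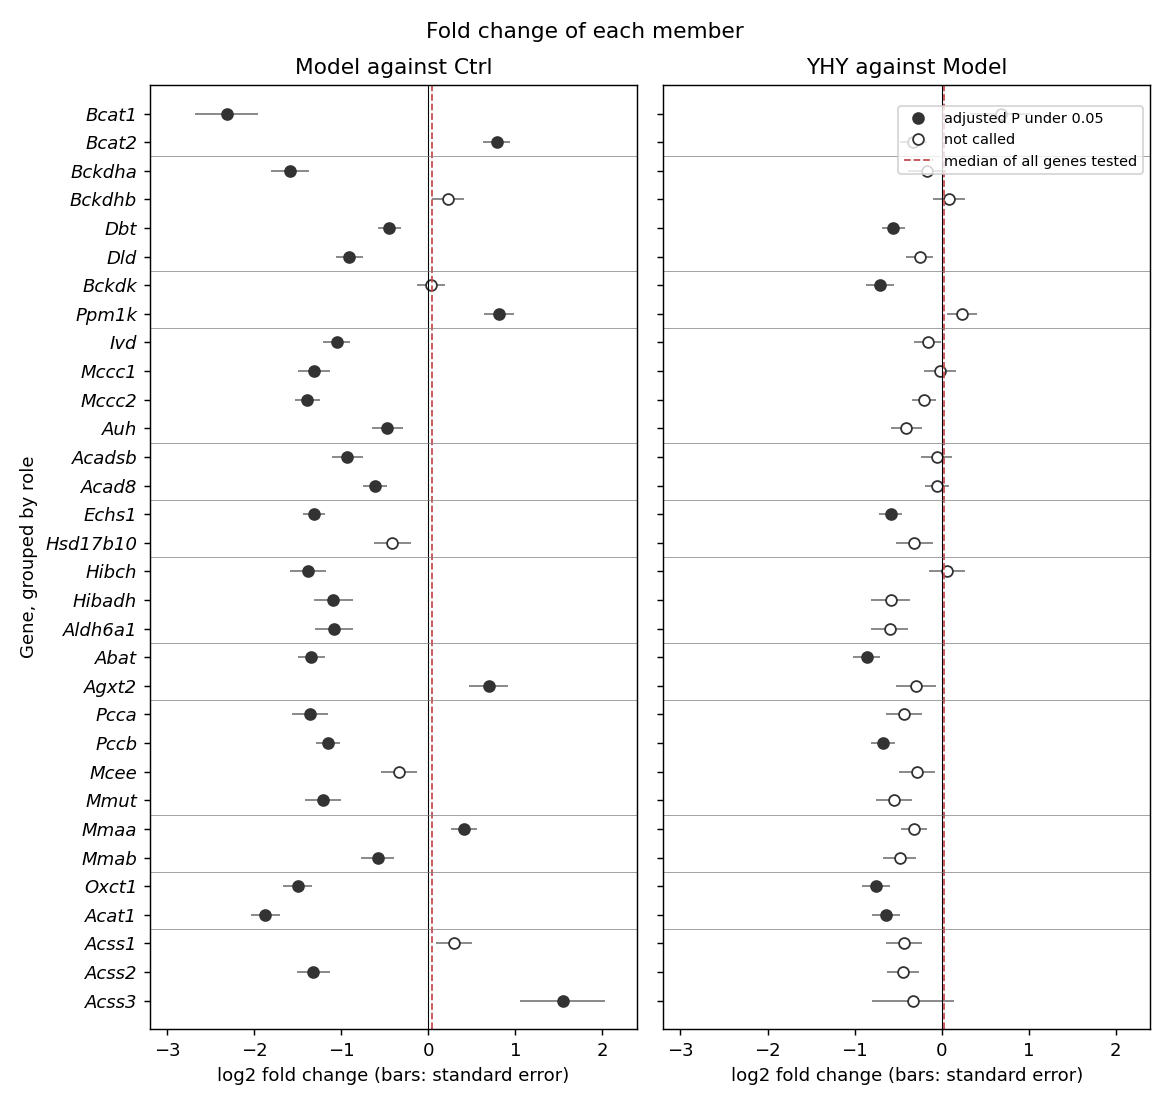
Points give the log2 fold change of each member, filled where adjusted P was under 0.05, with standard errors as bars; the dashed line is the median of all genes tested. In Model against Ctrl the points run from -2.32 to 1.54, and in YHY against Model from -0.86 to 0.68.

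Comparing YHY with Model asks whether these messages differ between db/db mice with and without the extract. Fewer members differed than between Model and Ctrl, and those that did were lower, in the acyltransferase core and kinase of the complex, the hydratase shared by the isoleucine and valine arms, and steps of propionate, GABA and ketone body use. Here 7 of 32 members were lower and 0 were higher, where 7.62% of all genes tested were lower and 5.63% were higher. The members called were Dbt, Bckdk, Echs1, Abat, Pccb, Oxct1 and Acat1. All 7 but Bckdk were also lower in Model than in Ctrl. In edgeR 0 members were higher at an unadjusted P under 0.05, and DESeq2 called 0 higher and 8 lower. By the looser rule of a fold over 1.2 and an unadjusted P under 0.05, 15 members were lower, against 14.7% of all genes lower and 13.9% higher. In 7 members every YHY mouse was below every Model mouse, against 9.28% of all genes, and in 0 every YHY mouse was above, against 6.83%. The median log2 fold change was -0.33 over the members and 0.02 over all genes. Of all genes called, 42.5% were higher with TMM and 64.4% without mitochondrial transcripts, a scaling that moved the median of all genes by 0.14. With library size alone 3 members were lower, namely Bckdk, Abat and Pccb. Without YHY 4, 11 members were lower and 1 was higher, Bcat1; without Model 3 the number lower was 5. The number of all genes called went from 2311 to 1146 without Model 3 and to 1551 without Model 1.

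**Figure D4:**
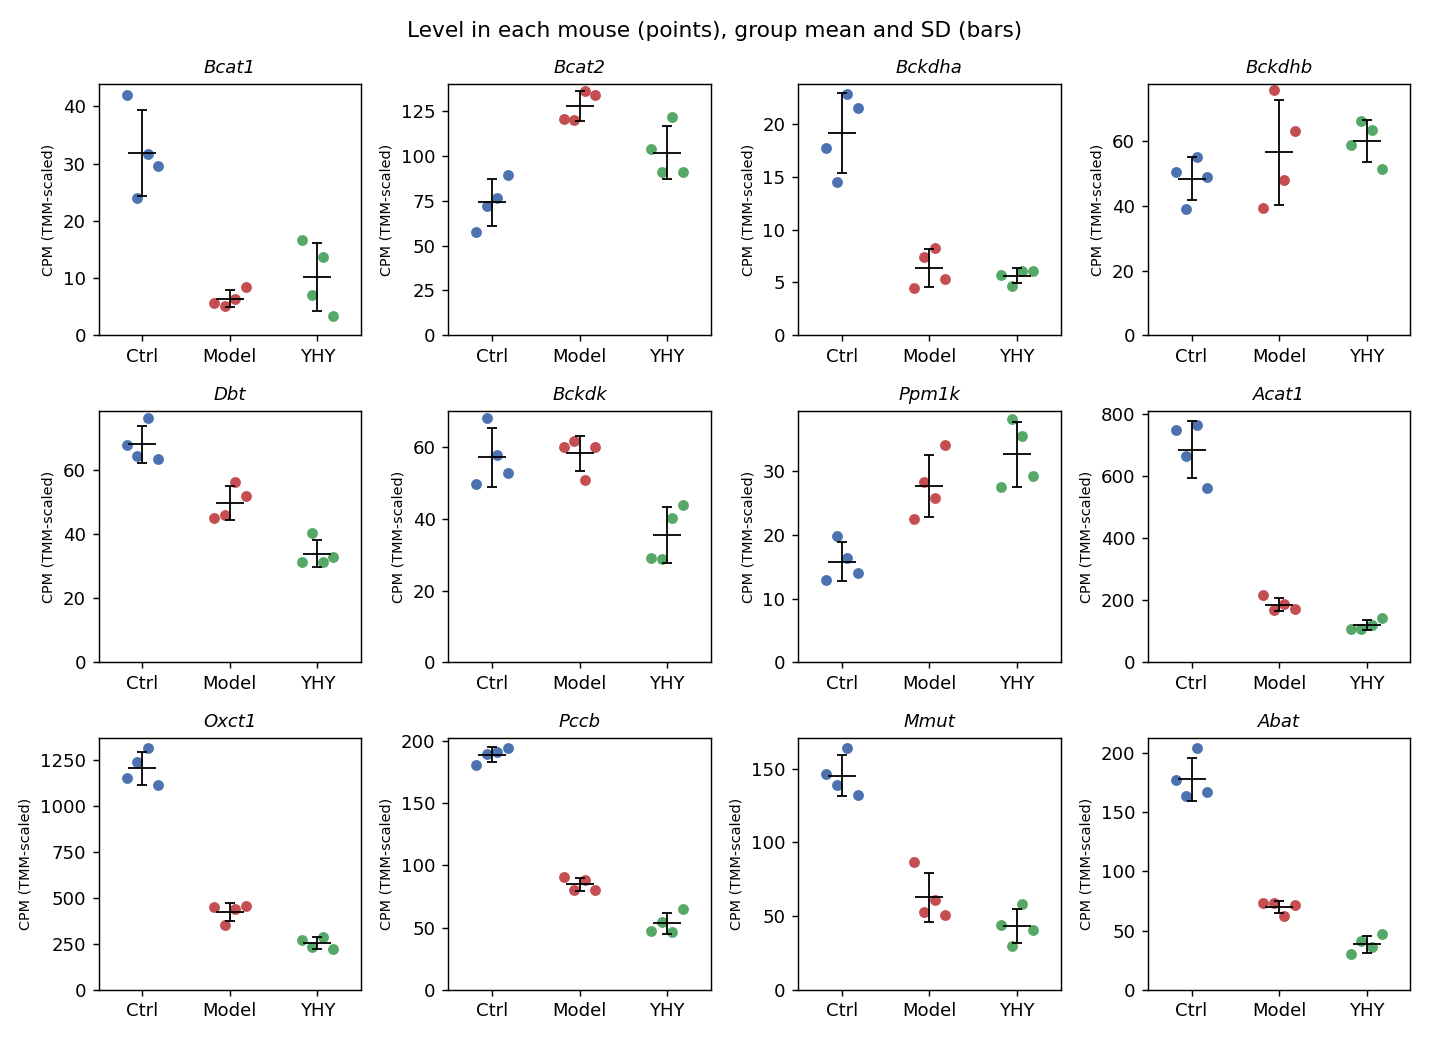
Points are the TMM-scaled CPM of single mice for 12 members, with bars for the group mean and SD (n = 4); axes start at 0. Dbt, Acat1, Oxct1, Pccb and Abat step down from Ctrl to Model and again to YHY, Bckdk is lower in YHY alone, and Bcat2 and Ppm1k are higher in Model than in Ctrl.

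Within the complex, Dbt was at 31.2, 40.2, 31.5 and 32.8 CPM in YHY 1 to 4. All were below the lowest Model mouse, with a log2 fold change of -0.55 (adjusted P = 0.0149, standard error 0.13), and without Model 3 the adjusted P was 0.0597. Without mitochondrial transcripts in the library size it was -0.42 (adjusted P = 0.0616). Bckdk was at 29.2, 28.9, 40.2 and 44 CPM in YHY 1 to 4, again all below the lowest Model mouse. Unlike the other members called, the kinase was not called in Model against Ctrl, and its log2 fold change against Model was -0.71 (adjusted P = 0.0108, standard error 0.16). Bckdha had 5.72, 4.64, 6.07 and 6.12 CPM in YHY 1 to 4, within the Model range, with a log2 fold change of -0.17 (adjusted P = 0.664). Bckdhb had 59, 66.3, 63.5 and 51.4 CPM and Ppm1k 27.5, 38.1, 35.5 and 29.2 CPM in YHY 1 to 4. Both overlapped Model, with adjusted P of 0.818 and 0.398.

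Farther down the pathway, Abat changed most among the members called. It had 29.96, 41.2, 35.8 and 47 CPM in YHY 1 to 4, each below every Model mouse, at a log2 fold change of -0.86 (adjusted P = 0.00288, standard error 0.15). Oxct1 had 268, 231, 289 and 219.8 CPM and Acat1 108, 109, 119.6 and 144 CPM in YHY 1 to 4. Neither gene overlapped with Model, at log2 fold changes of -0.75 (adjusted P = 0.00741, standard error 0.16) and -0.64 (adjusted P = 0.0186, standard error 0.16); for Acat1 without Model 3 the adjusted P was 0.0546. Pccb had 46.9, 54.5, 46.7 and 65.2 CPM and Echs1 45.8, 43.7, 49.9 and 46.3 CPM in YHY 1 to 4. Again no YHY mouse reached a Model mouse, and the log2 fold changes were -0.67 (adjusted P = 0.00668, standard error 0.14) and -0.59 (adjusted P = 0.00841, standard error 0.13). The carboxylase partner Pcca had 17.6, 23.8, 21.4 and 37.5 CPM in YHY 1 to 4, of which YHY 4 lay within the Model range. Its log2 fold change was -0.43 (adjusted P = 0.178) with all mice, -0.70 (adjusted P = 0.0141) without YHY 4 and -0.29 (adjusted P = 0.399) without Model 1. For Bcat1 the YHY mice spread widely, at 16.6, 7.02, 13.7 and 3.45 CPM in YHY 1 to 4. YHY 1 and 3 were above every Model mouse and YHY 4 below, and the log2 fold change of 0.68 (adjusted P = 0.220) was 0.97 (adjusted P = 0.0239) without YHY 4 and 0.34 (adjusted P = 0.576) without YHY 1. For the valine genes Hibadh and Aldh6a1 the log2 fold changes of -0.58 (adjusted P = 0.0968) and -0.60 (adjusted P = 0.0785) did not pass, and without YHY 4 they were -0.72 (adjusted P = 0.0488) and -0.74 (adjusted P = 0.0333). Without Model 1 they were -0.34 (adjusted P = 0.294) and -0.39 (adjusted P = 0.211). Leucine-branch genes gave adjusted P from 0.144 to 0.969.

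Setting YHY beside Ctrl places the treated db/db mice against the db/m mice; it shares its mice with both other comparisons. Relative to db/m mice most messages of the pathway were lower, most of all those for the thiolase, ketone body use and the breakdown of GABA. In all, 25 members were lower and 3 were higher, where 24.2% of all genes tested were lower and 26.1% were higher. Bcat2, Ppm1k and Acss3 were the members higher than in Ctrl, and without Ctrl 1 the number was 1. It was 1 with library size alone, Ppm1k, and 6 without mitochondrial transcripts. The median log2 fold change was -1.19 over the members and 0.10 over all genes. Of all genes called, 51.9% were higher with TMM, 28.4% with library size alone and 77.6% without mitochondrial transcripts. The largest decrease was that of Acat1, at -2.51 (adjusted P = 6.09e-08, standard error 0.17), followed by Oxct1 at -2.26 (adjusted P = 1.13e-07, standard error 0.17) and Abat at -2.21 (adjusted P = 9.57e-08, standard error 0.16). In each of these genes the 4 YHY mice were the lowest of the 12 mice. Bckdk, which was not called in Model against Ctrl, was lower in YHY than in Ctrl at -0.68 (adjusted P = 0.00239, standard error 0.16). Without mitochondrial transcripts in the library size this call was lost, at -0.21 (adjusted P = 0.259). Bckdha reached -1.76 (adjusted P = 9.30e-06) and Bcat1 -1.64 (adjusted P = 0.00104). Ppm1k stood at 1.05 (adjusted P = 1.42e-04), Bcat2 at 0.46 (adjusted P = 0.0214) and Acss3 at 1.22 (adjusted P = 0.0473). For Bcat2 without Ctrl 1, Ctrl 2, Ctrl 3 or YHY 3 the adjusted P was 0.0512 to 0.160, and for Acss3 the call was lost in 8 of 12 fits that left out 1 mouse, with an adjusted P of up to 0.154 (without Ctrl 3). With library size alone neither was called, Bcat2 being at 0.0462 (adjusted P = 0.883) and Acss3 at 0.80 (adjusted P = 0.227). Hsd17b10 and Mcee, which were not called in Model against Ctrl, were lower here, at -0.73 (adjusted P = 0.00894) and -0.63 (adjusted P = 0.0195); for Mcee without Ctrl 2 or YHY 2 the adjusted P was 0.0585 to 0.0637. Both calls were lost without mitochondrial transcripts in the library size, at -0.26 (adjusted P = 0.245) and -0.15 (adjusted P = 0.515). Bckdhb, Agxt2, Mmaa and Acss1 were not called, with log2 fold changes of 0.31, 0.40, 0.09 and -0.14 that changed sign with 1 of the 2 library-size scalings. With the other of these scalings each was called: without mitochondrial transcripts Bckdhb was at 0.78 (adjusted P = 0.00612), Agxt2 at 0.85 (adjusted P = 0.00190) and Mmaa at 0.56 (adjusted P = 0.00688), and with library size alone Acss1 was at -0.59 (adjusted P = 0.0259).

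Genes around the members were taken from 9 lists. Some genes stand in more than 1 list, so the counts per list are not separate, and the totals count each gene once. Of 109 genes, 108 were tested. In Model against Ctrl 54 were lower and 10 were higher, with a median log2 fold change of -0.55. Of all genes 18.5% were lower and 19.6% were higher, the shares beside which the counts per list below can be read. In YHY against Model 18 were lower and 0 were higher; the number called was 7 without Model 3 and 28 without YHY 4, and 11 with library size alone. Of all genes 7.62% were lower and 5.63% were higher in that comparison. The members were not compared with these lists by a test. Of the further genes of branched-chain breakdown, 15 of 22 tested were lower and 3 were higher. The log2 fold changes of this list in Model against Ctrl ran from -2.45 to 2.89, and not every gene called is named here. Ehhadh, a peroxisomal hydratase and dehydrogenase, had the largest decrease, at -2.45 (adjusted P = 6.50e-05). The aldehyde oxidases Aox1 and Aox3 rose from low levels, at 2.10 (adjusted P = 0.00288) and 1.93 (adjusted P = 0.0319); for Aox3 the call was lost in 6 of 12 fits that left out 1 mouse, with an adjusted P of up to 0.105 (without Model 4), and with library size alone the adjusted P was 0.0914. Hadh and Acat2 were the genes of this list with the largest decrease in YHY against Model, at -0.99 (adjusted P = 0.00419) and -0.99 (adjusted P = 0.00136).

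Of the carriers of branched-chain amino acids, 2 of 9 were higher in Model and 0 were lower, where 19.6% and 18.5% of all genes were. Slc43a1 and Slc7a5, which carry large neutral amino acids across the cell membrane, were those higher, at 1.89 (adjusted P = 7.12e-04) and 0.97 (adjusted P = 0.00490); with library size alone Slc7a5 was at 0.52 (adjusted P = 0.149). Slc25a44, which brings these amino acids into mitochondria, had 21.2 ± 1.86 (Ctrl), 19.8 ± 0.296 (Model) and 14.3 ± 2.56 CPM (YHY; mean and SD). In Model against Ctrl it was not called, with a log2 fold change of -0.10 (adjusted P = 0.603) whose sign turned with upper-quartile scaling. With library size alone it was called lower in Model, at -0.54 (adjusted P = 0.0297). It was lower in YHY than in Model at -0.46 (adjusted P = 0.0451), where the call was lost in 10 of 12 fits that left out 1 mouse, with an adjusted P of up to 0.112 (without YHY 3). The call was also lost with library size alone, at -0.48 (adjusted P = 0.138), and without mitochondrial transcripts, at -0.34 (adjusted P = 0.141). Slc7a8 was also lower in YHY than in Model, with overlap, at -1.25 (adjusted P = 0.0310), where the call was lost in 6 of 12 fits that left out 1 mouse, with an adjusted P of up to 0.0924 (without Model 1). In cofactor supply 6 of 17 genes were lower in Model and 1 was higher. For cobalamin, the receptor gene Cd320 moved by -1.51 (adjusted P = 8.09e-05), its ligand Tcn2 by -1.40 (adjusted P = 0.00269) and Mmachc, the processing protein, by -0.68 (adjusted P = 0.0125), a call lost without mitochondrial transcripts in the library size (adjusted P = 0.119). Abcd4, the lysosomal exporter, rose by 1.32 (adjusted P = 4.62e-04). 

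Electron transfer from the acyl-CoA dehydrogenases repeated the contrast between partners. Etfa, the alpha subunit of the electron transfer flavoprotein, had 257, 274, 321 and 239 CPM in Ctrl 1 to 4 and 151, 96.5, 106 and 87.3 in Model 1 to 4. Etfb, its beta subunit, had 62.2, 103, 66.2 and 53.5 CPM in Ctrl 1 to 4 and 147, 141, 167 and 126 in Model 1 to 4. Alpha was lower and beta higher in every Model mouse, at log2 fold changes of -1.31 (adjusted P = 1.24e-04, standard error 0.20) and 1.03 (adjusted P = 0.00137, standard error 0.21). Etfdh, the acceptor in the inner membrane, was lower at -1.17 (adjusted P = 1.38e-04). Of the pyruvate and 2-oxoglutarate dehydrogenase subunits, 5 of 6 were lower in Model, including Pdha1 at -1.23 (adjusted P = 2.82e-05), Dlat at -0.96 (adjusted P = 9.65e-05), Dlst at -0.78 (adjusted P = 8.27e-04) and Pdhb at -0.71 (adjusted P = 5.36e-04). Of tricarboxylic acid cycle genes, 12 of 14 were lower, led by Suclg1, which takes up the succinyl-CoA that propionate yields, at -1.83 (adjusted P = 1.66e-05). Sdha and Sucla2 were lower too, at -1.32 (adjusted P = 2.92e-05) and -1.27 (adjusted P = 1.47e-05). In YHY against Model 3 cycle genes were lower, with Suclg2 at -0.91 (adjusted P = 0.0149) and Sdhd at -0.63 (adjusted P = 0.0163); for Sdhd without Model 3 the adjusted P was 0.0501, and with library size alone it was 0.112. Of mitochondrial fatty acid oxidation genes, 7 of 14 were lower in Model, including Acadm at -1.70 (adjusted P = 2.85e-06), Acads at -1.50 (adjusted P = 6.35e-06), Hadhb at -1.15 (adjusted P = 3.38e-04) and Hadh at -1.04 (adjusted P = 5.22e-04). Acads was lower again in YHY than in Model, at -0.85 (adjusted P = 0.00274). Of genes that break down other amino acids, 12 of 25 were lower and 3 were higher in Model. Kynu and Hpd, of tryptophan and tyrosine breakdown, rose by 2.43 (adjusted P = 0.00171) and 1.57 (adjusted P = 1.58e-04), while Ddo and Cbs changed by -1.36 (adjusted P = 1.04e-04) and -1.21 (adjusted P = 2.05e-05). In YHY against Model 4 were lower, Dao among them at -0.85 (adjusted P = 0.0470), where the call was lost in 10 of 12 fits that left out 1 mouse, with an adjusted P of up to 0.116 (without YHY 3). Among regulators, Klf15, a factor known to act on branched-chain breakdown genes, had 60.7 ± 2.79 (Ctrl), 76.9 ± 7.49 (Model) and 67.3 ± 18 CPM (YHY; mean and SD). All Model mice were above all Ctrl mice, yet the log2 fold change of 0.34 (adjusted P = 0.131) did not pass and turned with library size alone; it was 0.67 (adjusted P = 0.00238) without mitochondrial transcripts in the library size. Esrra, which encodes estrogen-related receptor alpha, was lower in YHY than in Model at -0.53 (adjusted P = 0.0213), where without Model 3, Model 4 or YHY 1 the adjusted P was 0.0545 to 0.0719; with library size alone it was 0.0886.

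**Figure D5:**
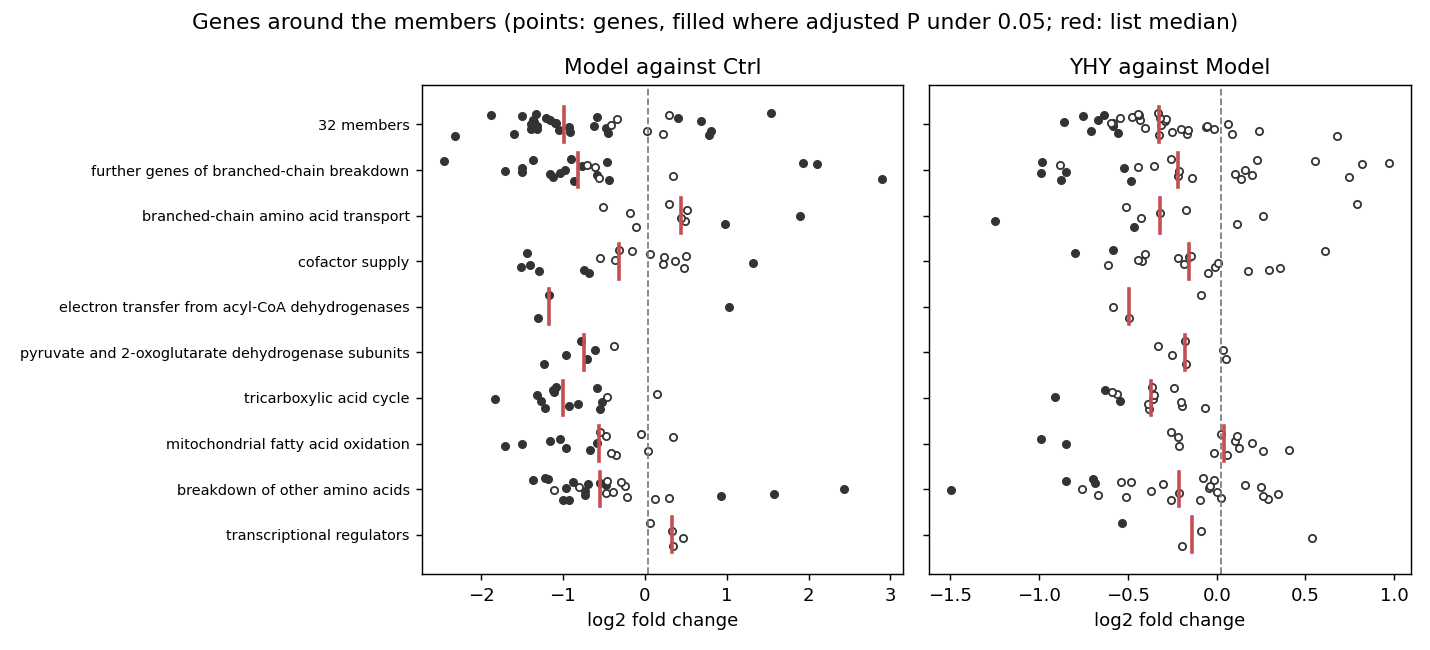
Each point is the log2 fold change of a gene, filled where adjusted P was under 0.05, for the 32 members and the 9 lists around them; red lines are list medians and the dashed line the median of all genes tested. In Model against Ctrl the medians are -1.17 for electron transfer, -1.001 for the tricarboxylic acid cycle, -0.81 for the further genes of branched-chain breakdown and 0.45 for transport, beside -0.99 for the members.

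Cell type markers were read beside these results, and none of the 10 lists had a gene without counts in all mice. The 12 proximal tubule markers summed to 52058, 67222, 54327 and 26599 CPM in Ctrl 1 to 4, 11963, 7993, 10842 and 7805 in Model 1 to 4 and 5479, 9647, 4359 and 10339 in YHY 1 to 4. Kap, an androgen-dependent gene and the most abundant of the list per kilobase, supplied 76.8% of the mean sum. Leaving it out, a choice made after the values were seen, the sum ran from 6301 to 9099 CPM in Ctrl, 3756 to 5014 in Model and 2055 to 5186 in YHY. Both sums were lower in every Model mouse than in every Ctrl mouse. Single markers of this list differed: 7 of 12 were lower in Model, 1 was higher and 4 were not called. In YHY against Model 11 of 12 had a negative log2 fold change, with a median of -0.56; 5 were lower at an unadjusted P under 0.05 and 1 by adjusted P. The part of proximal tubule content in the members' levels was not tested.

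The gene named with each marker list is its most abundant per kilobase. Thick ascending limb markers summed to 1919 (Ctrl), 983 (Model) and 1385 CPM (YHY), with 3 of 4 lower in Model against Ctrl, the gene being Umod. Collecting duct markers summed to 893 (Ctrl), 486 (Model) and 384 CPM (YHY), with 2 of 6 lower, the gene being Aqp2. Both segments extend into the cortex, so these markers do not separate whole kidney from cortex. Distal convoluted tubule markers were higher instead, with 224 (Ctrl), 470.2 (Model) and 406 CPM (YHY) and 2 of 3 higher, the gene being Pvalb. Podocyte markers summed to 129 (Ctrl), 154 (Model) and 107 CPM (YHY), with 2 of 5 higher. The sums were 107, 120.0, 147 and 140.2 CPM in Ctrl 1 to 4 and 249.6, 126, 142 and 100.2 CPM in Model 1 to 4, so that Model 1 alone stood above Ctrl. Endothelial markers (Emcn) summed to 181 (Ctrl), 217 (Model) and 217 CPM (YHY), with 2 of 5 higher. Stromal markers (Acta2) summed to 165 (Ctrl), 199.7 (Model) and 241 CPM (YHY), with 2 of 5 higher. Segments and cell types outside the proximal tubule therefore did not all move one way. Immune cell markers (Lyz2) summed to 101 (Ctrl), 163 (Model) and 235 CPM (YHY), with 1 of 5 tested higher and Cd3e too low to test. Lyz2 made up 87.8% of the mean sum, and the median log2 fold change of the list in Model against Ctrl was 0.02. In YHY against Model all 5 were positive, with a median of 0.51. Of these, 2 were higher at an unadjusted P under 0.05 and 0 by adjusted P. In YHY against Ctrl all 5 were positive, with a median of 0.42, and 2 were called higher. Adipocyte markers (Fabp4) summed to 53.8 (Ctrl), 55 (Model) and 65.3 CPM (YHY), of which Fabp4 made up 98.8%, Adipoq and Plin1 being too low to test and the other 2 not called. Hepatocyte markers (Serpina1a, which kidney also expresses) summed to 326 (Ctrl), 316 (Model) and 255 CPM (YHY), with 2 of 5 higher. Serpina1a made up 63.4% of the mean sum, and the median log2 fold change of the list in Model against Ctrl was 0.94.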

How the data were processed

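PolyA RNA of kidney from 12 mice was sequenced. The authors deposited counts of reads per gene; the submitters' processing notes name Trimmomatic 0.39, HISAT2 2.2.1, featureCounts 2.0.1 and GRCm39, and the use of strand in counting was not stated. Gene lengths and comparison tables were deposited as well. No values of the authors' comparison tables (group means, fold changes, p-values, 12 columns per mouse) were used. As their means cover 9 mice, a fit without Ctrl 2, Model 1 and YHY 4 was tried. That fit called 4 members higher and 23 lower in Model against Ctrl, and 0 and 8 in YHY against Model. In YHY against Ctrl it called 2 higher and 25 lower. Groups followed the sample labels. Differences came from edgeR 4.0.16 (R 4.3.3), using filterByExpr, TMM scaling and the two-sided quasi-likelihood test in a single fit of the 3 groups, and P was adjusted by Benjamini and Hochberg's method across the genes that passed the filter. The code was tested on simulated data. Pairs of libraries within a group differed by a chi-square of 17.3 to 139 per degree of freedom, so none matched within sampling noise. The members and all lists were chosen with earlier results of these data known. Named were all 32 members; of each list around them up to 4 called genes with the largest fold change in Model against Ctrl and up to 2 in YHY against Model; Slc25a44, Klf15 and Mmachc always; and the most abundant gene per length of each marker list. Some genes that this rule names are left out of the text. DESeq2 1.42.0, other scalings, filters, samples and a replicate block were alternatives. Gene lengths were the authors' values, given as bases. RefSeq promoters carry the build GRCm38.p6, and no coordinates of the files were mixed with it.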

Additional observations from a re-analysis of the deposited data

Results flagged for a closer look

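Single mice that stood far from the other 3 of their group were sought by the gap to the nearest mouse over the whole range of the group, against the 0.05 limit of Dixon's test for 4 samples. Of 135 groups of values, 7 passed it, and chance passes about 1 in 20. Bckdk in Model 3 was the lowest of its group at 50.9 CPM, the next being 60.1 CPM (gap 0.85 of the range). Pcca in Model 1 was the highest at 43.7 CPM against 31.2 (gap 0.88), and Oxct1 in Model 2 the lowest at 352 CPM against 440.4 (gap 0.851). The mitochondrial share was highest in Ctrl 2, at 22.7% against 18.6% (gap 0.962), and in YHY 2, at 64.6% against 54.6% (gap 0.933). Distal convoluted tubule markers summed highest in YHY 2, at 572 CPM against 367 (gap 0.879), and endothelial markers lowest in Ctrl 2, at 147 CPM against 189 (gap 0.847).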

How the results depend on the processing

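Of the 61 genes whose log2 fold change is given for Model against Ctrl, 51 kept direction and side of the threshold on leaving out each mouse in turn; for YHY against Model it was 10 of 21, and for YHY against Ctrl 11 of 15. Under the other settings the numbers were 42, 9 and 6. The causes of the changes below were not tested.

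With library size alone the number of members called higher in Model against Ctrl was 0 and in YHY against Ctrl 1. In YHY against Model it called 3 members (3 lower), 11 genes of the further lists and 1177 of all genes. Signs turned in Model against Ctrl for Acss1 (-0.11), Bckdhb (-0.24), Bckdk (-0.39), Klf15 (-0.0759) and Mmaa (-0.0260). In YHY against Ctrl they turned for Agxt2 (-0.0695), Bckdhb (-0.13) and Mmaa (-0.34). Library size without mitochondrial transcripts called 6 members higher in YHY against Ctrl and turned Acss1 there (0.33) and Slc25a44 in Model against Ctrl (0.22). Upper-quartile scaling brought the log2 fold change of Slc25a44 in Model against Ctrl to 9.93e-04, so that its sign barely turned. Without a filter beyond 1 count 1 member was called higher in YHY against Ctrl. A fit of only the 8 mice compared called 7 genes of the further lists and 1385 of all genes in YHY against Model. A fold over 1.2 with unadjusted P under 0.05 called 15 members (15 lower), 32 genes of the further lists and 4988 of all genes.

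Leaving out each mouse in turn, the members called higher in Model against Ctrl ranged from 2 to 5, and in YHY against Ctrl from 1 to 3. In YHY against Model the ranges were 5 to 12 members called, 0 to 1 higher, 5 to 11 lower, 7 to 28 genes of the further lists and 1146 to 2723 of all genes. The sign of Bckdk in Model against Ctrl turned, with a range of -0.0832 to 0.12, and that of Mmaa in YHY against Ctrl, with -0.0311 to 0.18.

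Pairing by replicate number was checked across groups in 12 pairs of libraries. Correlations of the residual levels ran from -0.23 to 0.19, and 3 were above 0.1. They gave no clear sign of pairs, but with 4 mice in each group they cannot settle whether the numbers mark pairs. As a block, the replicate number gave 27 called members when Model was set against Ctrl, and 7 when YHY was set against Model. Depth limits Acss3, the least counted member.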
